A study of Danio rerio with 8 samples.

Results

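Cadherins are calcium-dependent adhesion proteins of the cell surface. Classical cadherins bind the same cadherin on the neighbouring cell and hold the actin cytoskeleton through catenins, protocadherins adhere more weakly and also sort and signal between cells, and the giant Fat and Dachsous cadherins bind each other across cell borders and orient cells within a tissue. In the zebrafish gastrula, E-cadherin is needed for epiboly, the spreading of the blastoderm over the yolk, while N-cadherin and several protocadherins act in the neural plate and in the mesoderm as it converges. Genes of this family were taken as every symbol of the deposited table that begins with cdh and a digit, pcdh, fat1 to fat4 or dchs and that has reads. The name pattern found 91 rows, of which 81 had reads, and 4 symbols had 2 rows, so that 77 genes were kept, 1 row for each symbol with the row of most reads, out of 32520 in the table.

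The RNA came from whole zebrafish embryos of the AB strain with their yolk. There were 4 control pools kept in medium with 0.5% DMSO. The other 4 pools were treated with KT09, the ethanolic stem extract of Mahonia bealei, at 100 µg/ml. The extract was dissolved in DMSO as well, and the DMSO level of the treated pools is not given. Each pool combined 75 embryos, which had been exposed from 2 hpf in groups of 25, and the labels give collection at 8 hpf. The results of the study give 8 hpf as well, while its discussion speaks of a later hour for the same data. The study describes delayed epiboly in treated embryos, so an effect of the extract on a gene and a difference in stage at collection cannot be told apart in these data. For replicate 4 of both groups, the library name in the labels looks like one of the other group. The deposited group means were used as they are, and they do not show which group each of these pools was averaged into. If the pools were exchanged, each mean would hold a pool of the other group and the differences given would on the whole be too small.

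The table gives 1 level per gene and group, the authors' mean over the pools of reads divided by size factors. All levels below are these group means. They carry no spread between pools, so no difference was tested. A 95% counting interval, which covers the error of counting reads only, stands beside a fold where it is given, and differences between pools would widen it. The most frequent values of scarce genes show what 1 read in 1 pool adds to a mean, 0.218 to 0.305 for control and 0.215 to 0.255 for treated embryos. A group mean of 10 rests on 33 to 46 reads over the pools of that group. An overall mean of 10, taken over the pools of both groups, rests on more reads. A gene was called higher or lower where the group means, each with 1 added, differed by more than 1.5-fold. Longer transcripts collect more reads, so levels are compared between groups and not between genes.

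Among cadherin genes with a mean of 10 or more in both groups, the levels of cdh11, dchs1b and pcdh19 differed most. All were lower in treated embryos, while the levels of E-cadherin and N-cadherin stood within 1.5-fold. In all, 32 of the 77 members had an overall mean of 10 or more. Of these 32, 6 were higher and 9 lower in treated embryos. Among those called, pcdh1g32 reached that mean only through control embryos and pcdh15b only through treated ones. Of the 15888 genes of the table at that level, 13.8% were higher and 15.1% lower, 28.9% in all. Past 2-fold, 6 members, pcdh1g32 among them, were lower and 0 higher, where 6.51% of all genes were lower and 5.78% higher. The median log2 ratio was 0.00 for the members and 0.01 for all genes, and the lowest and highest members stood at -3.55 and 0.92. The shares called depend on the level of a gene, so they are given by level too. Among the 9 members with an overall mean of 1000 or more, 3 were lower and 1 was higher, where 5.06% of all genes at that level were lower and 8.05% higher, and the median size of the log2 ratio was 0.41 for these members and 0.22 for all genes of that level. For the 6 members from 100 to under 1000, 2 were lower and 0 higher, against 12.5% and 10.2% of all genes, and the median sizes were 0.48 and 0.30. Of the 17 members from 10 to under 100, 4 were lower and 5 higher, against 23% and 20.5%. Where the whole counting interval had to lie past 1.5-fold, 7 of the 32 members were lower and 1 was higher, against 9.38% and 8.95% of all genes. The other 45 members had fewer reads and are described by their range further on.

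**Figure D1:**
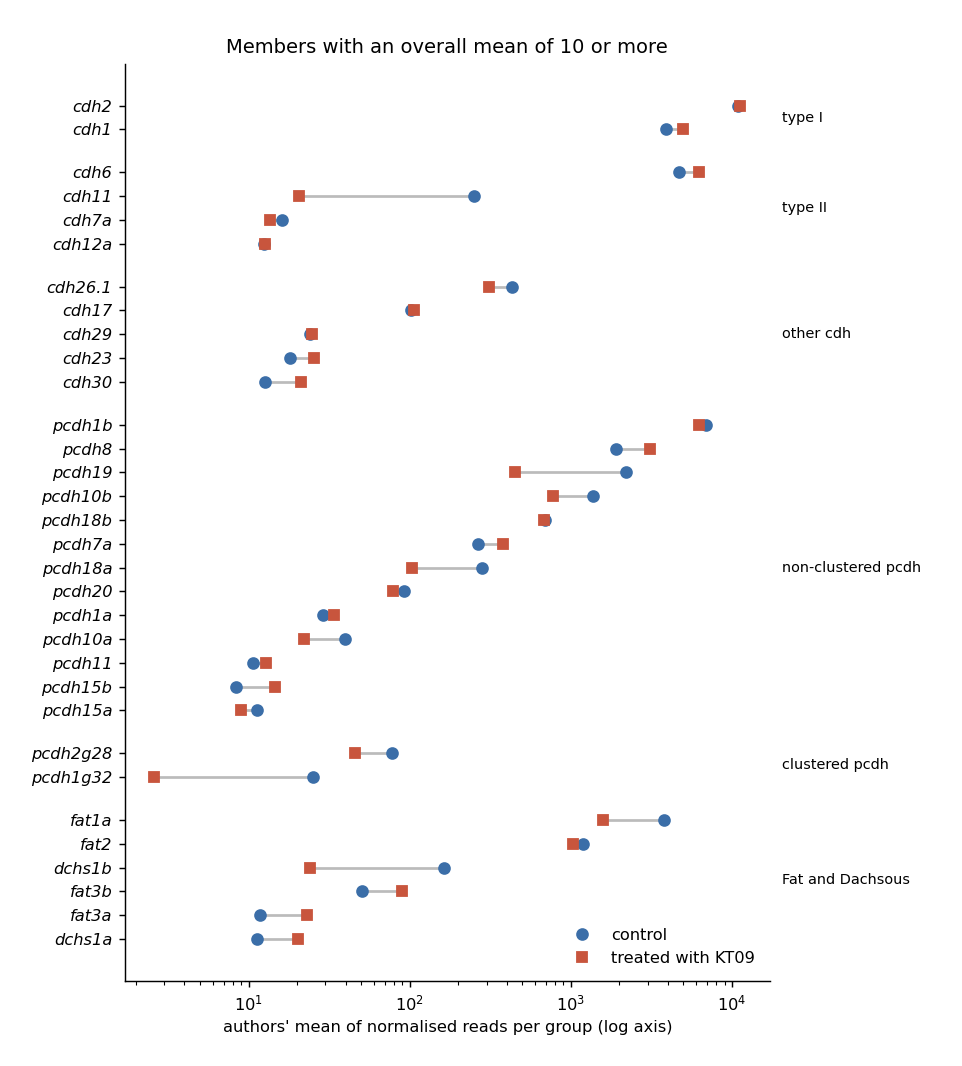
Group means of normalised reads in control (circles) and treated (squares) embryos on a log axis, for the 32 members with an overall mean of 10 or more, grouped by subfamily. The symbols of cdh2, cdh17 and pcdh18b nearly coincide, while those of cdh11, dchs1b, pcdh19 and pcdh1g32 lie far apart with the treated mean on the left.

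Among the type I classical cadherins, neither of the 2 genes with enough reads was past 1.5-fold. For cdh2 (ENSDARG00000018693), which encodes N-cadherin of the neural plate and mesoderm, the group mean was 10827 in control and 11260 in treated embryos (1.04-fold, counting interval 1.03 to 1.05). For cdh1 (ENSDARG00000102750), which encodes E-cadherin, it was 3903 in control and 4945 in treated embryos, 1.27-fold higher (1.24 to 1.29). Thus neither gene was called lower in treated embryos. A difference as small as that of cdh2 depends on how the groups are scaled. The other 2 genes of this class, cdh4 (R-cadherin) and cdh15 (the muscle cadherin), had group means of 1.98 and 0.305 in control and of 3.05 and 1.44 in treated embryos, too few reads to compare.

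Type II cadherins act in sorting of neurons, neural crest and mesenchyme. Their largest difference was in cdh11 (ENSDARG00000021442), a cadherin of mesenchymal and neural crest cells, which stood at 251 in control and 20.4 in treated embryos. Its control mean was 12.3-fold higher (9.84 to 15.5), a log2 ratio of -3.55, which is the most negative of the 32 members. The study lists cdh11 among the genes it found most lowered on these same samples, so its direction is no independent evidence. By contrast, cdh6 (ENSDARG00000014522), known from the embryonic kidney and the neural crest, had 4676 in control and 6216 in treated embryos, 1.33-fold higher (1.304 to 1.355). The neural cadherin genes cdh7a, with 16.0 and 13.5, and cdh12a, with 12.5 and 12.7, differed by less than the counting error.
In the RefSeq gene order of the GRCz12tu assembly, used here for order only, cdh6 is followed by cdh10a, cdh12a and cdh18a with no protein-coding gene between them. Reads were many for cdh6, while the other 3 had group means of at most 12.7 in either group. Likewise cdh11 has the vascular cadherin gene cdh5 as its direct neighbour, and the group mean of cdh5 was 5.05 in control and 7.39 in treated embryos, within counting error.

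Of the remaining cadherins, cdh26.1 (ENSDARG00000078404) had 428 in control and 310.5 in treated embryos, 1.38-fold lower (1.28 to 1.49). The levels of cdh17 (ENSDARG00000005112), a cadherin of the zebrafish kidney duct, were 102 in control and 107 in treated embryos, a fold of 1.04 whose counting interval ran from 0.910 to 1.20. One gene of this class was called, cdh30, with 12.6 in control and 21.2 in treated embryos (1.69-fold higher, 1.18 to 2.45), and it was no longer past 1.5-fold with 5 added to both means (log2 ratio 0.58). The tip link gene of hair cells, cdh23, stood at 18.1 and 25.6, within 1.5-fold, and its second row at 7.30 and 7.57.

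The non-clustered protocadherins differed in both directions. Of 17 genes, 13 had enough reads, with 2 higher and 4 lower, where 13.8% and 15.1% of all genes were. The median log2 ratio of the 13 was -0.15. The gene pcdh19 (ENSDARG00000034344), whose product works with N-cadherin in the movements of neurulation in zebrafish, had 2184 in control and 448 in treated embryos. This is a 4.88-fold lower level in treated embryos (4.64 to 5.13), beside a cdh2 level that differed by 1.04-fold. Of the members with an overall mean of 1000 or more, none differed further.
For pcdh8 (ENSDARG00000006467), the paraxial protocadherin that acts in convergence of the paraxial mesoderm, the group mean was 1895 in control and 3103 in treated embryos. It was 1.64-fold higher (1.59 to 1.68), and the only member with an overall mean of 100 or more that was called higher. By contrast, pcdh10b (ENSDARG00000102824), which is expressed in paraxial mesoderm and brain, stood at 1363 in control and 772 in treated embryos, 1.76-fold lower (1.69 to 1.84).
The gene with the most reads of this class, pcdh1b (ENSDARG00000036175), had 6934 in control and 6243 in treated embryos, a 1.11-fold difference. For pcdh7a (ENSDARG00000078898), the copy of a protocadherin that holds ectoderm together in Xenopus, the means were 266 in control and 377 in treated embryos, 1.42-fold higher (1.31 to 1.54) and thus short of 1.5-fold. The row of most reads for pcdh20 had 92.6 and 78.4, and the gene name table calls this gene pcdh20l.

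**Figure D2:**
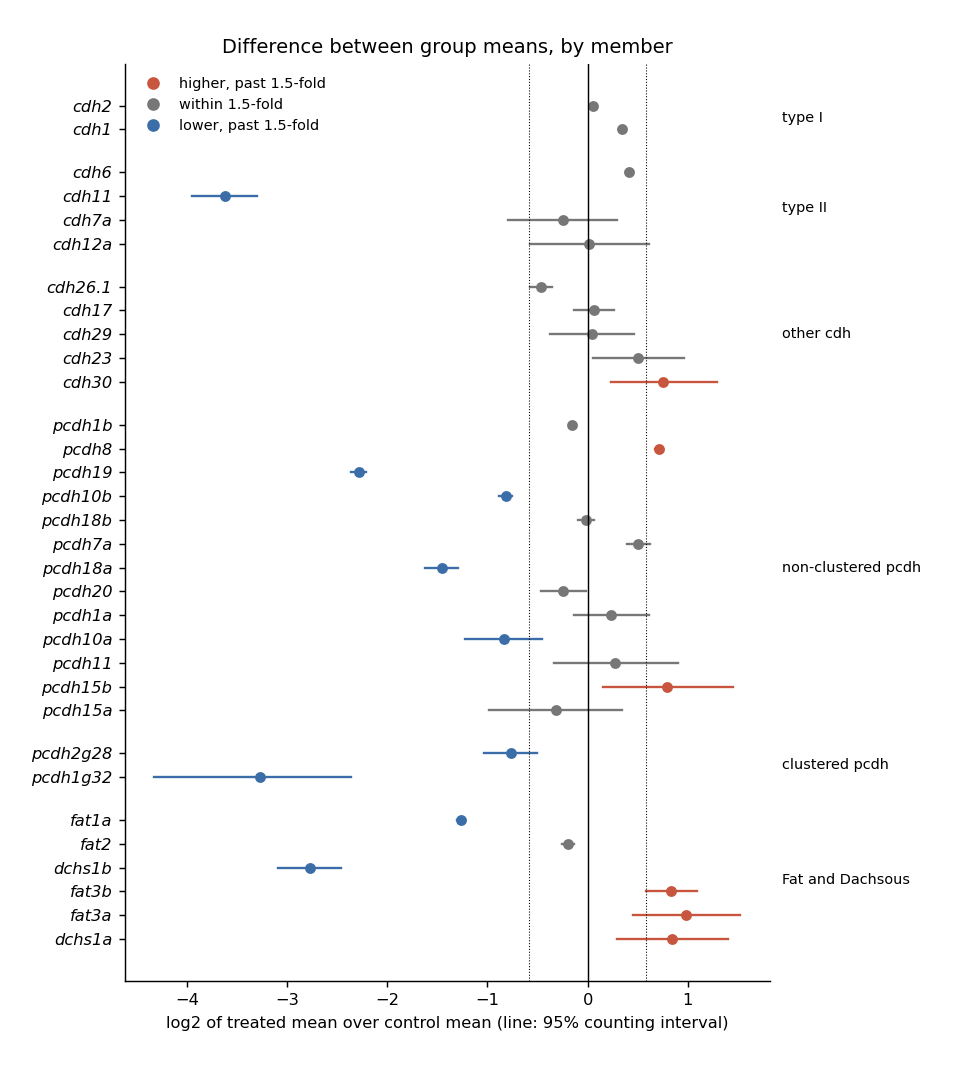
Log2 of the treated over the control group mean (points) with the 95% counting interval (lines) for the same 32 members, where dotted lines mark 1.5-fold and colour marks the call made with 1 added to both means. The 6 genes past 2-fold, cdh11, pcdh1g32, dchs1b, pcdh19, pcdh18a and fat1a, all lie left of 0, and those called higher all stay within 2-fold.

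Of the 6 Fat and Dachsous cadherins with enough reads, 3 were higher and 2 lower. Of these 5, all but fat1a had an overall mean from 10 to under 100, where 20.5% of all genes were higher and 23% lower. For fat1a (ENSDARG00000017591), whose protein organises actin and cell polarity, the group mean was 3795 in control and 1579 in treated embryos, 2.40-fold lower (2.34 to 2.48). The gene dchs1b (ENSDARG00000079850), required for cytoskeletal order in the early zebrafish embryo, had 164 in control and 24.1 in treated embryos, 6.82-fold lower (5.52 to 8.50). By comparison fat2 (ENSDARG00000018923), whose fly counterpart directs collective migration of an epithelium, stood at 1183 and 1033, a 1.15-fold difference.
The 3 genes called higher had fewer reads. They were fat3b with 50.3 in control and 89.9 in treated embryos (1.79-fold, 1.498 to 2.135), fat3a with 11.7 and 23.1 (1.98-fold, 1.37 to 2.88) and dchs1a with 11.3 and 20.3 (1.79-fold, 1.23 to 2.64). Summed over the 7 genes of this class, the means of control embryos came to 5217 and those of treated embryos to 2773, most of it from fat1a.

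Several of these genes have an a and a b copy from the genome duplication of teleost fish, and 6 such pairs had enough reads in both copies. In 3 pairs the copies stood on the same side of 0 or differed little. The log2 ratios of pcdh10a and pcdh10b were -0.81 and -0.82, and those of fat3a and fat3b 0.92 and 0.82. For pcdh1a and pcdh1b they were 0.23 and -0.15, neither past 1.5-fold.
In the other 3 pairs the copies parted. The gene pcdh18a (ENSDARG00000089805), known in zebrafish for the turnover of E-cadherin in the axial mesoderm, had 282 in control and 102.8 in treated embryos, 2.75-fold lower (2.45 to 3.08). Its copy pcdh18b (ENSDARG00000052494) had 691 in control and 683 in treated embryos (1.01-fold, 0.958 to 1.065). The counting intervals of the 2 copies lie apart, and the difference between the copies could not be tested against the spread between pools.
The dchs1 copies went in opposite directions, with a log2 ratio of -2.72 for dchs1b and 0.79 for dchs1a, whose counting intervals also lie apart. The copies of pcdh15, a tip link gene of hair cells like cdh23, had log2 ratios of -0.29 for pcdh15a and 0.73 for pcdh15b at means of 8.41 to 14.6, and the counting intervals of their folds overlap. With 5 added to both means, pcdh15b was no longer past 1.5-fold (log2 ratio 0.55), and only its treated mean brought it past the minimum.
In RefSeq gene order pcdh10a and pcdh18a are direct neighbours, and both were lower in treated embryos. Their copies pcdh18b and pcdh10b lie with 1 protein-coding gene between them, and of these only pcdh10b was called lower.

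**Figure D3:**
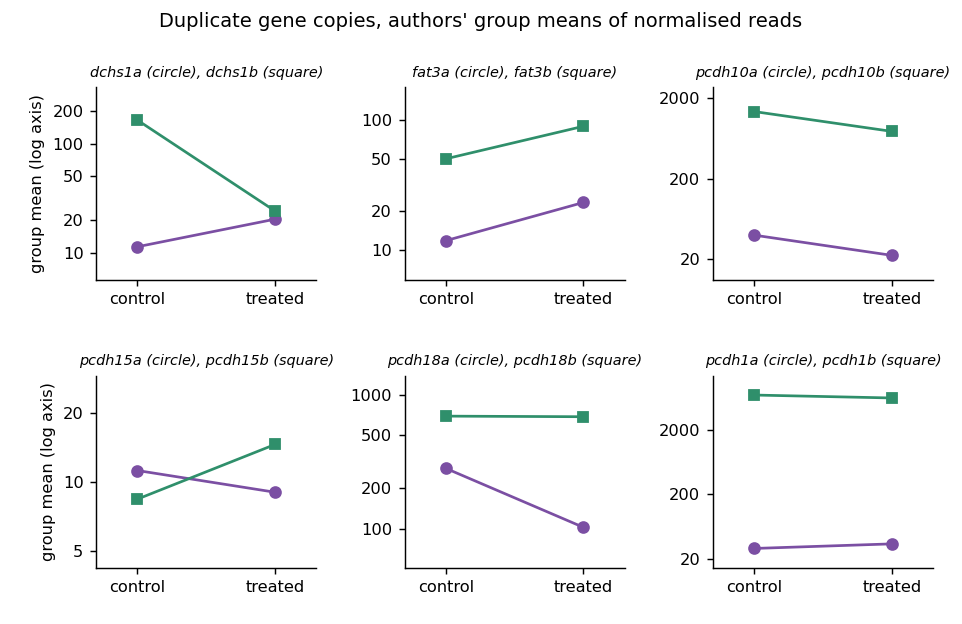
Group means of normalised reads (log axis, with its own range in each panel) in control and treated embryos for the 6 pairs of duplicate copies with enough reads, the a copy as circles and the b copy as squares. The lines of pcdh10a and pcdh10b and of fat3a and fat3b run in parallel, while the lines of dchs1b and pcdh18a slope down and those of dchs1a and pcdh18b do not.

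Clustered protocadherins, which sit in arrays of similar genes and give neurons their surface identity, had few reads at this stage. Of 26 with reads, 24 had an overall mean under 10. The 2 others were both lower in treated embryos, where 23% of all genes from 10 to under 100 were. They were pcdh2g28 with 77.7 in control and 45.7 in treated embryos (1.70-fold, 1.42 to 2.05) and pcdh1g32 with 25.1 and 2.60. The latter mean rests on 11 to 12 reads in all treated pools, and the control mean was 9.67-fold higher (5.16 to 20.1). With 1 added to both means the log2 ratio was -2.86. Only its control mean brought pcdh1g32 past the minimum.
Over all 26 genes, 19 had the higher mean in control embryos and 7 in treated ones. Of the 15888 genes of the table with a mean of 10 or more, 7875 had a log2 ratio below 0 and 8013 above. Most of the 26 lie under that level, so no matched share stands beside their split, and no result is drawn from it. For some, such as pcdh2ab10 (higher in control) and pcdh1g2 (higher in treated embryos), the side rests on 0 to 2 reads per group. The means of the 26 genes added up to 159 in control and 84.3 in treated embryos. Of these sums, pcdh2g28 alone gave 77.7 and 45.7. These genes share near-identical stretches, so the authors' counting may have split reads between neighbours in the array, and single members are uncertain.

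The 45 members under an overall mean of 10 reached at most 12.7 in control, in pcdh2ab9, and 11.9 in treated embryos, in pcdh17. Of them, pcdh2ab9 stood at 12.7 in control and 6.54 in treated embryos and pcdh17 at 6.99 and 11.9. For 35 of the 45, the counting interval of the fold included 1, so that no difference was detectable at this depth. For the other 10 it excluded 1, in both directions, on few reads and without the spread between pools. The same share was not computed for all genes at that level, so no result about the members is drawn from this count. In 15 members the overall mean was below 1. Reads were absent from all control pools in 3 members and from all treated pools in 5.

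**Figure D4:**
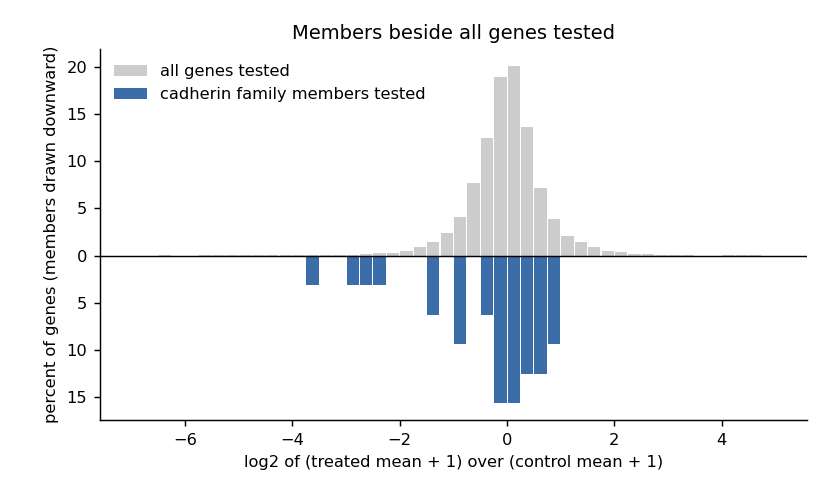
Percent of genes by log2 ratio of treated over control, in steps of 0.25, for the 15888 genes with an overall mean of 10 or more (grey, upward) and the 32 members among them (blue, downward). Both are centred near 0, and the members reach down to -3.55 but not above 0.92.

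Summed over all 77 members, the group means came to 39500.4 in control and 37772 in treated embryos, a 1.05-fold difference. Within this sum, type I cadherins took 37.3% of reads in control and 42.9% in treated embryos, type II cadherins 12.6% and 16.6%, and non-clustered protocadherins 35.0% and 31.6%. The share of Fat and Dachsous genes was 13.2% in control and 7.34% in treated embryos. In RNA of whole embryos, fewer cells of a type and less RNA per cell cannot be told apart for any of these genes.

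On the cytoplasmic side, cadherins hold actin through catenins. Of 37 genes listed as catenins and junction linkers, 29 had enough reads, with a median log2 ratio of 0.15. In treated embryos 8 were higher and 7 lower, where 13.8% and 15.1% of all genes were. Most of the 29 had an overall mean of 100 or more, where 9.54% of all genes were higher and 10.1% lower. Beta-catenin, which binds the cadherin tail, comes from ctnnb1, with 37800.4 in control and 45113.5 in treated embryos (log2 ratio 0.26), and from ctnnb2, with 10402 and 17425 (0.74). The study already reports ctnnb2 as up-regulated on these same samples, so its direction is no independent evidence. Alpha-catenin gene ctnna1 stood at 5689 and 7922, p120 gene ctnnd1 at 6729 and 8662 and plakoglobin gene jupa at 6427 and 8540, all 3 within 1.5-fold. None of the genes just named was lower, but this does not hold for the whole list. Among its genes with an overall mean from 10 to under 100, ctnnd2b (log2 ratio -0.84) and arvcfb (-1.07) were lower. Higher at that level were ctnna2 (0.98), vcla (1.37) and pkp3b (0.65). The copies with more reads did not follow. For vclb, the other vinculin gene, the means were 494 in control and 318 in treated embryos (-0.63, called lower). For pkp3a they were 3239 and 3713, within 1.5-fold.
The furthest of the list with an overall mean of 100 or more were the nectin gene nectin1b (202 in control and 65.4 in treated embryos, log2 ratio -1.61), the afadin gene afdna (622 and 253, -1.29), the plectin gene pleca (1663 and 3226, 0.96) and the tight junction scaffold gene tjp1b (1045 and 546, -0.94). Nectins and afadin form an adhesion pair that recruits cadherins to junctions.

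Transcription factors of the Snail, Zeb and Twist families repress cadherin genes in other settings, E-cadherin above all. They were listed with tcf3a, tcf3b, prrx1a, prrx1b and klf8, for which such a role is known from mammalian cells, and of these 17 genes 13 had enough reads. In treated embryos 2 were higher and 5 lower, all of them Snail, Zeb or Twist genes, where 28.9% of all genes were called. Most of the 13 had an overall mean of 100 or more, where 9.54% of all genes were higher and 10.1% lower. The Snail genes snai2, with 206 in control and 684 in treated embryos (log2 ratio 1.73), and snai1a, with 4541 and 7311 (0.69), were the 2 called higher. The genes zeb1b (1123 and 401, log2 ratio -1.48), zeb2a (835 and 386, -1.11) and twist1a (400.2 and 191, -1.06) were among those lower. The level of cdh1 beside them was 1.27-fold higher.

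A further list held genes of the cadherin superfamily that the name pattern does not catch, together with the desmoplakin genes dspa and dspb, which encode a linker of desmosomes and no cadherin. Of the 10 genes with enough reads, most had an overall mean of 1000 or more, where 13.1% of all genes were past 1.5-fold. Among the 10, 1 was past 1.5-fold, where 28.9% of all genes with a mean of 10 or more were. It was celsr1b, a planar polarity cadherin, with 505 in control and 105 in treated embryos (log2 ratio -2.25). The next furthest were dspb (1232 and 1601, log2 ratio 0.38), celsr2 (3482 and 2898, -0.26) and dspa (14018 and 12062, -0.22). The celsr1a copy had means of 4037 and 4224 (0.07), and the desmosomal cadherins dsc2l and dsg2.1 had log2 ratios of 0.01 and 0.04.

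Fat and Dachsous act on the Hippo pathway in flies, which restrains the co-activator Yap. Of 23 genes of this pathway with enough reads, 2 were higher and 6 lower, or 34.8% called in all against 28.9% of all genes, with a median log2 ratio of -0.16. Most of the 23 had an overall mean of 100 or more, where 9.54% of all genes were higher and 10.1% lower. The share was not tested, and no result about the pathway is drawn from it. The Yap partner gene tead1b had 844.5 in control and 272 in treated embryos (log2 ratio -1.63), and the atrophin gene atn1, whose fly counterpart binds Fat, had 238.5 and 94.9 (-1.32). Next furthest with an overall mean of 100 or more was lix1l, with 321 and 171 (-0.91). Under that mean, amotl2b was lower, with 125 in control and 59.5 in treated embryos (-1.06). For yap1 the means were 7380 in control and 4876 in treated embryos (-0.60). The 2 called higher were vgll4l (457 and 814, 0.83) and ccn1 (22.1 and 50.5, 1.16).

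A list of regulators of the paraxial mesoderm, where pcdh8 is expressed, also held the Wnt ligand and receptor genes wnt11, wnt11f2, fzd7a and fzd7b, of which Frizzled 7 is a partner of paraxial protocadherin in Xenopus. Of 17 with enough reads, 5 were higher and 7 lower, where 13.8% and 15.1% of all genes were. Their median log2 ratio was -0.42. Most of the 17 had an overall mean of 100 or more, where 9.54% of all genes were higher and 10.1% lower. The gene tbx16, whose product activates pcdh8 in zebrafish, had 6927 in control and 10695 in treated embryos (log2 ratio 0.63). Higher too were tbxta (0.87), mespab (0.88), mespaa (1.06) and wnt11, the last with 7.92 in control and 21.0 in treated embryos. Among those lower were tbx6 (2438 and 667, log2 ratio -1.87), foxc1b (169 and 70.1, -1.26) and foxc1a (2237 and 1105, -1.02).

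**Figure D5:**
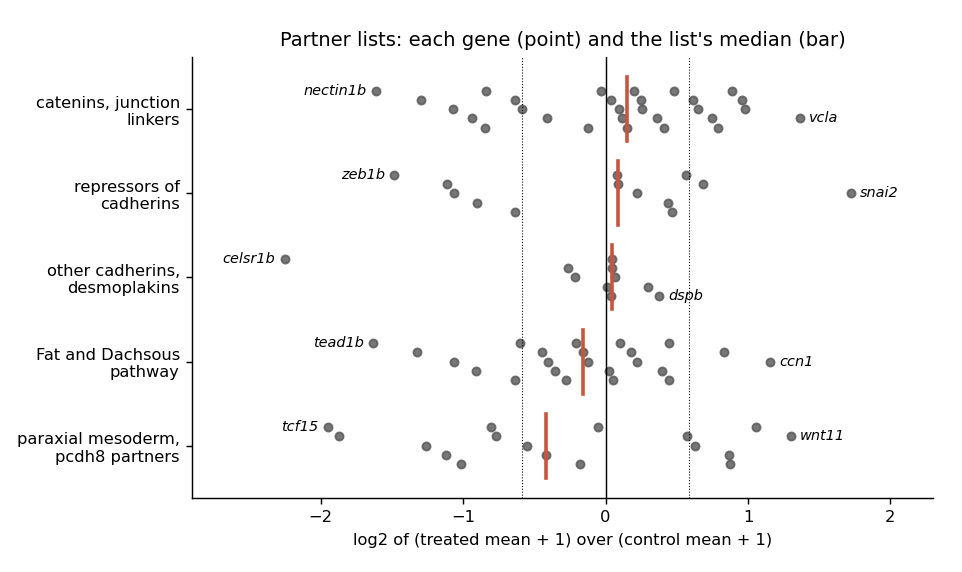
Log2 ratio of treated over control, with 1 added to both group means, for each gene (points) of 5 partner lists with an overall mean of 10 or more, with the median of the list as a bar and dotted lines at 1.5-fold. The medians run from -0.42 to 0.15, and each list but that of other cadherin superfamily genes and desmoplakins holds genes past 1.5-fold on both sides.

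The labels call the tissue whole larvae, so markers of the gastrula and of larval cells were read. All 12 gastrula markers were well above 0, between 562 and 6927 in control and between 386 and 10695 in treated embryos, and their summed levels were 31927 and 44061.5. Of these, 5 were higher and 1 was lower, where 9.54% and 10.1% of all genes with a mean of 100 or more were. The 1 lower was otx2b of the anterior neural plate, with 2471 in control and 386 in treated embryos. The 6 markers of the enveloping layer were all within 1.5-fold, beside a cdh1 level 1.27-fold higher. They ran from 4456 to 60219 in control and from 3672 to 65972 in treated embryos. Nearest to the limit was krt17, 1.49-fold lower in treated embryos (1.45 to 1.52). Of 12 markers of differentiated larval cells, 7 had an overall mean under 10, among them ins, prss1, rho and hbae1.1. The other 5 were fabp2 with 1869 in control and 592 in treated embryos, mpz with 199 and 314, elavl3 with 129 and 57.4, myhz2 with 61.8 and 56.5 and mylpfa with 50.1 and 46.8. The part of these shifts in tissue markers in the differences of the cadherin genes was not tested.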

How the data were processed

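Single-end reads of stranded mRNA libraries were run by the authors through the nf-core rnaseq pipeline, with GRCz11 as reference and gene models of Ensembl. The deposited values are signal values: the authors scaled counts by DESeq2 size factors and took the mean per gene of the 4 control pools, of the 4 treated pools and of all pools. The deposited fold changes, statistics and p-values are the authors' own comparison and were not used, and no p-value was computed. All 32520 rows entered the comparison, log2 of the ratio of group means with a pseudocount of 1, at an overall mean of 10 or more and a call past 1.5-fold. Over all genes the control means add up to 1.62e+07 and the treated means to 1.69e+07. The relative depth of a pool was 0.820 to 1.14 among controls and 0.980 to 1.16 among treated pools. Reads behind a mean were estimated from the value of 1 read, and the 95% counting interval of a fold is the exact Clopper-Pearson interval of the treated share of those reads.
The members and gene lists were chosen with earlier results of these data known. By rule, all members with an overall mean of 100 or more were named, those from 10 to under 100 past 2-fold, those under 10 with a group mean of 10 or more, and of each list up to 4 genes furthest from a ratio of 1 with an overall mean of 100 or more. Other genes were named after their values were seen. The computation of calls was tested on simulated data of known folds, which is no test of the differences reported. Tables were handled with pandas 2.3.3 and numpy 2.4.6 under Python 3.11.15, intervals with scipy 1.17.1, plots with matplotlib 3.10.9. Alternatives were other pseudocounts, minimum means, scalings, fold thresholds and the rows kept for a symbol. No sequences are shown, as no sequence table was used here.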

Additional observations from a re-analysis of the deposited data

How the results depend on the processing

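With pools averaged in the deposited table, the spread between pools and the weight of single pools could not be examined. No paired analysis was possible because the columns carry no replicate numbers. The count of 6 members higher and 9 lower was the same with a pseudocount of 0.5 and with both scalings. Of all genes, 14% were higher and 15.3% lower with a pseudocount of 0.5. These shares were 12% and 17.5% with group means divided by the sum over all genes, and 13.2% and 15.7% when centred on the median ratio. With a pseudocount of 5 the count was 4 higher and 9 lower, against 12.6% and 13.8% of all genes, and cdh30 and pcdh15b lost their call. The count was 9 higher and 10 lower past 1.3-fold, where 22.5% and 23.4% of all genes were called. Keeping every row of a symbol could not change it, as the second rows all lie under the minimum. It was 15 higher and 20 lower of 77 members with no minimum mean, against 16.8% and 16.4% of all genes, and 1 higher and 5 lower of 15 members with an overall mean of 100 or more, against 9.54% and 10.1%. Past 2-fold, 0 were higher and 6 lower, against 5.78% and 6.51%. Chosen after seeing the data, a rule that the whole counting interval lie past 1.5-fold left 1 higher and 7 lower, where it called 8.95% and 9.38% of all genes. Depth limits the members under an overall mean of 10.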
